A study of Mus musculus with 4 samples.

Results

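The histone genes were followed in regulatory T (Treg) cells with and without the deubiquitinase CYLD. They were taken as the probe sets annotated with exactly 1 gene symbol of a histone family (the H1f, H2ac, H2ax, H2az, H2bc, H3c, H3f and H4c names), with the probe set of highest mean kept for each gene. This gave 34 histone genes of the 19938 genes with such a probe set. By class there were 8 linker histones (H1), 7 genes of H2A, 9 of H2B, 4 of H3 and 6 of H4.

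RNA was measured on 4 Affymetrix mouse arrays, 2 per genotype. WT cells were YFP-positive Treg cells of Cyld+/+ Foxp3-yfp-cre mice, and KO cells were YFP-positive Treg cells of Cyld fl/fl Foxp3-yfp-cre mice, all on C57Bl6 and aged 6 to 8 weeks. Both groups therefore carried the Cre recombinase with yellow fluorescent protein, which is made in cells that express Foxp3, and only the KO group carried floxed Cyld. The cells were sorted by flow cytometry, from spleen and lymph nodes by the sample labels and from spleen alone by the sorting protocol. Whether the replicates of a group were separate mice or pools is unknown, so p-values rest only on the spread between these samples, which may be technical. In the main test that spread was pooled over all genes tested, so p-values and intervals do not reflect a gene's own spread. The labels name no agent for either group.

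Histones package DNA into nucleosomes, in which DNA is wound around an octamer of H2A, H2B, H3 and H4, while H1 binds the linker DNA between them. Most histone genes lie in clusters, are transcribed mainly while a cell copies its DNA, and make messages that end in a stem-loop without a poly(A) tail. Replacement variants such as H2A.Z and H3.3 are made outside the clusters, largely from polyadenylated messages, and enter chromatin at other times. Histone messages of the clusters are known to rise as cells enter S phase and to be degraded when DNA copying ends. Priming of the RNA for labelling was not given in the sources used here, and its part in the level of messages without a poly(A) tail was not tested.

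Values are deposited intensities on a linear scale, with array medians from 99.0 to 105 and values from 26.6 to 7205; no detection calls were used. Cyld read 524 and 502 on the WT arrays and 284 and 218 on the KO arrays, lower on both KO arrays. Foxp3 read 2016 and 1881 on the WT arrays and 1697 and 1553 on the KO arrays, and 0 of 8 markers of Treg cells passed the test (limma, 1 at an unadjusted p under 0.05). The KO arrays differed from each other in sex-linked genes: Y-linked Kdm5d read 271 and 275 on the WT arrays and 268 and 127 on the KO arrays, and Xist read 1306 and 1403 on the WT arrays and 1630.2 and 2321 on the KO arrays. Of 9 tested macrophage markers 9 were lower in KO, with a summed intensity of the 10 measured of 2131 to 2329 in WT and 930 to 1122 in KO. Among 5 erythroid markers Car1 and Car2 were higher in KO, while Alas2, Epor and Klf1 were below the expression filter, between 51.5 and 74.1. The part of these differences in the histone results was not tested. In bulk RNA, more dividing cells and more histone RNA per cell cannot be told apart.

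In the KO cells 7 of 30 tested histone genes rose and 0 fell: H1f5, H1f1, H2bc3, H2az1, H2bc14, H2ax and H2bc18. Of all 13956 genes tested, 4.79% were called higher and 3.5% lower. Calls are limma adjusted p-values under 0.05 over all genes tested; 14 histone genes were higher and 2 lower at an unadjusted p under 0.05. On both KO arrays 19 of the 30 read above both WT arrays and 2 below them, where 22.5% and 26.2% of all genes did so. The median log2 fold change was 0.33 over the 30 genes and -0.02 over all genes tested. The remaining 4 genes (H1f8, H1f10, H3c7 and H3c15) lay under the 30th percentile of mean expression and were not tested. Only 1 gene, H2az1, had more than 1 such probe set.

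**Figure D1:**
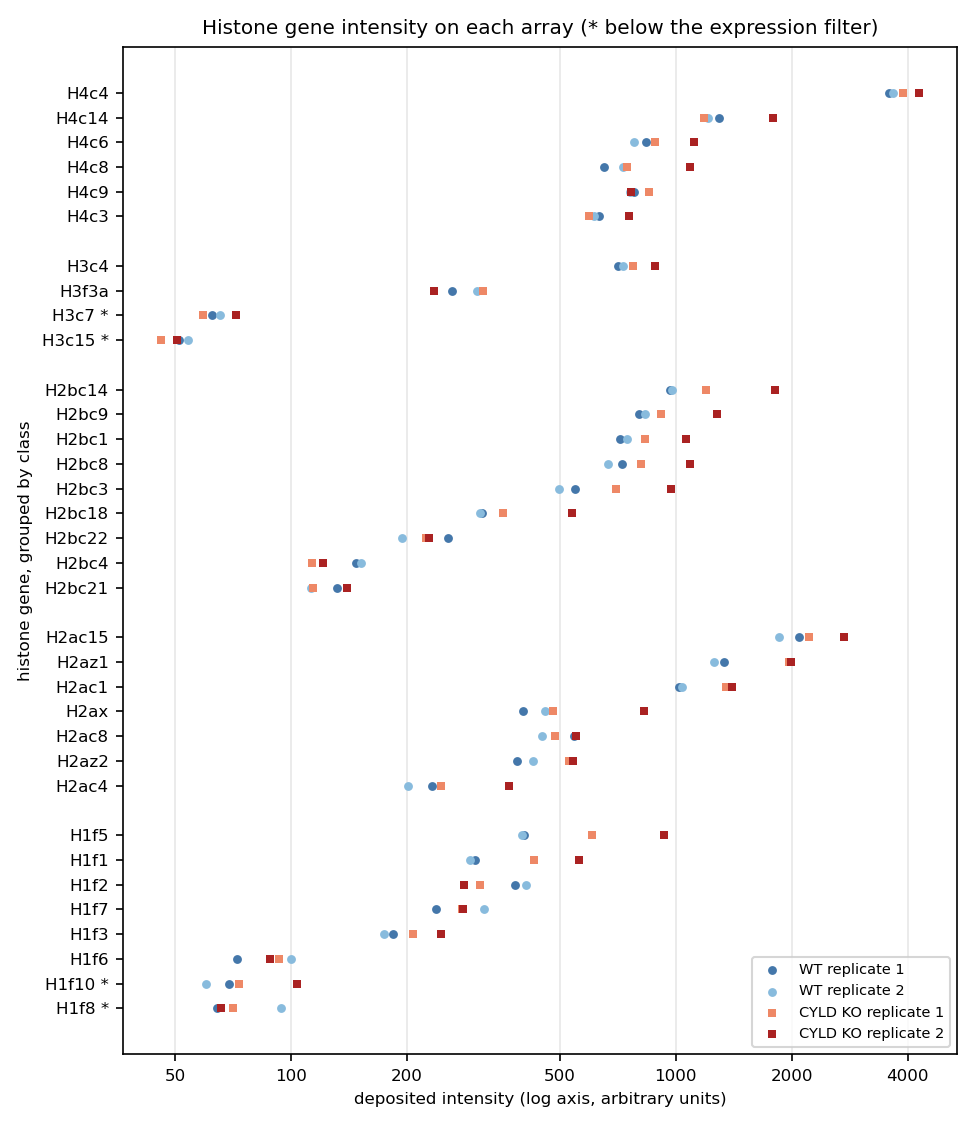
Deposited intensity of each of the 34 histone genes (log axis) on the 2 WT arrays (blue circles) and the 2 KO arrays (squares), grouped by class; asterisks mark the 4 genes below the expression filter. For H1f5 the WT points lie at 404 and 399 and the KO points at 606 and 933.

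The calls rest on a standard error of 0.17 log2 units that limma shared across all genes. With no such pooling 0 histone genes were called (5 at an unadjusted p under 0.05, smallest adjusted p 0.239). H1f5 passed whichever array was left out. H1f1 did not pass without WT replicate 2 (adjusted p = 0.071) or KO replicate 2 (0.0515), and H2az1 did not pass without WT replicate 1 (0.118) or WT replicate 2 (0.218). H2bc3, H2bc14, H2ax and H2bc18 passed without KO replicate 1 and not without any other array. Without KO replicate 2 the log2 fold change was 0.59 for H1f5, 0.42 for H2bc3, 0.30 for H2bc14 and 0.19 for H2bc18, each under the value with all arrays by more than 1.5 times. Fewer histone genes were called without WT replicate 1, WT replicate 2 or KO replicate 2, and more without KO replicate 1. The number called over all genes tested moved the same way. The median log2 fold change of the histone genes was 0.33 without WT replicate 1 and 0.31 without WT replicate 2. It was 0.46 without KO replicate 1 and 0.16 without KO replicate 2. Over all genes tested it was -0.04, -0.0004, -0.04 and -0.007 in that order.

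**Figure D2:**
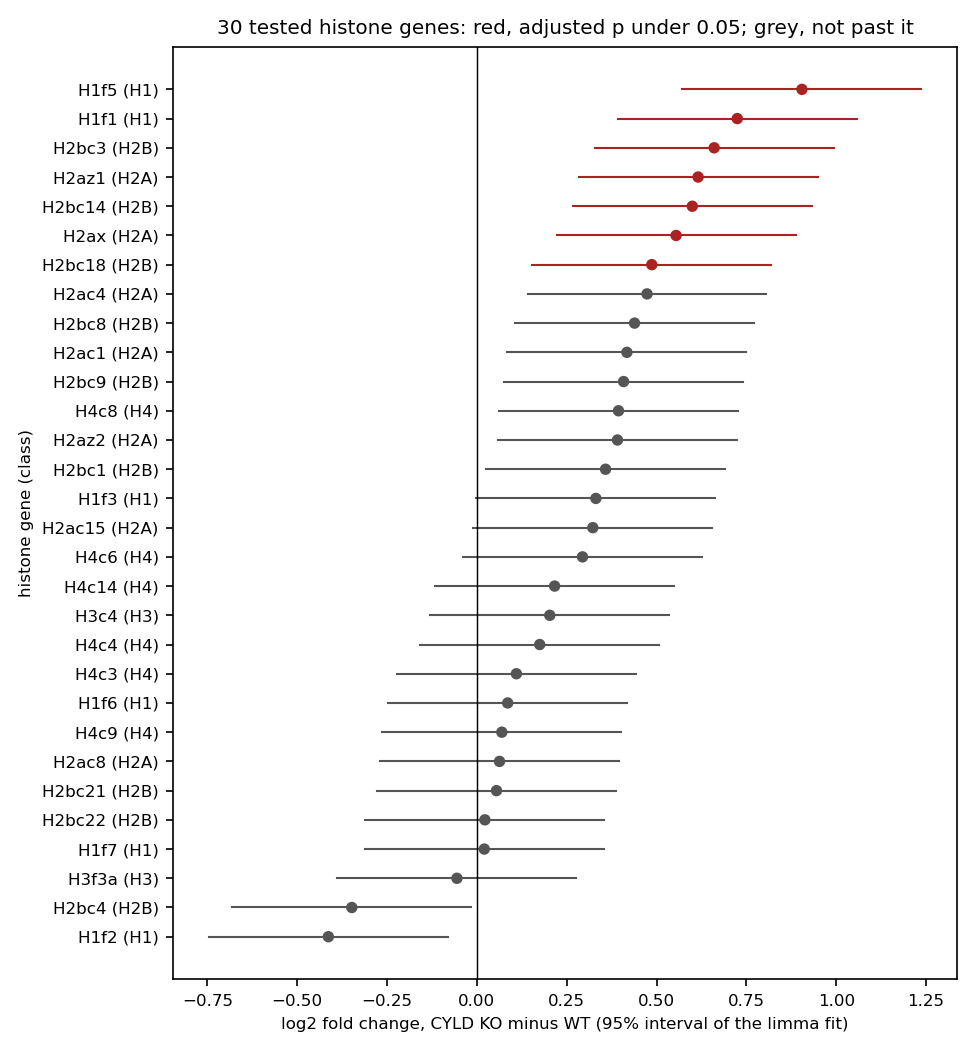
Log2 fold change of KO over WT for the 30 tested histone genes, with the 95% interval of the limma fit; red genes passed the threshold. The values run from -0.41 for H1f2 to 0.90 for H1f5, and 27 of 30 are above 0.

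Among the linker histones, H1f5 and H1f1 rose and H1f2 lay lower without passing the test. H1f5 (earlier Hist1h1b, encoding H1.5) read 404 and 399 on the WT arrays and 606 and 933 on the KO arrays. Both KO arrays were above both WT arrays, the second by more. Its log2 fold change was 0.90 (95% interval 0.57 to 1.24, limma adjusted p = 5.85e-06), the largest among the histone genes tested. H1f1 (Hist1h1a, H1.1) read 300.1 and 292 on the WT arrays and 429 and 559.9 on the KO arrays. Its groups did not overlap either, and the log2 fold change was 0.72 (0.39 to 1.06, adjusted p = 0.000646). H1f3 (Hist1h1d, H1.3) went the same way with smaller differences, at 184 and 175 on the WT arrays and 208 and 246 on the KO arrays (log2 fold change 0.33, adjusted p = 0.252).

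H1f2 (Hist1h1c, H1.2) is known to be made also as a polyadenylated message in cells that do not divide. It read 382 and 407 on the WT arrays and 310.1 and 282 on the KO arrays. Both KO arrays were below both WT arrays, with a log2 fold change of -0.41 (-0.75 to -0.08, adjusted p = 0.124), the lowest of the histone genes tested. The differences from the WT mean were -0.35 on replicate 1 and -0.48 on replicate 2 of KO.

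The starts of H1f5, H1f1 and H1f2 are shown because these genes span the range of fold changes in their class. Sequences are from RefSeq on GRCm38.p6, 150 bases ending just before the annotated start, 5′ to 3′ on the gene's strand. Capitals mark the CCAAT box (CCAAT), the TATA box (TATAAA), the H1 box (AAACACA) and the octamer (ATTTGCAT) on either strand.
H1f5, chr13:21780626-21780775, minus strand: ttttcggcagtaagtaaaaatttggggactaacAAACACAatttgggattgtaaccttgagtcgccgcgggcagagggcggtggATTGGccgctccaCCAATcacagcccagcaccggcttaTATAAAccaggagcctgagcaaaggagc
H1f1, chr13:23763518-23763667, plus strand: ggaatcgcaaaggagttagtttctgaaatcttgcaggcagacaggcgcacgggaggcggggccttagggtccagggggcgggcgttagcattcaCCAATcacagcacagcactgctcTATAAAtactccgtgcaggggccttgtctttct
H1f2, chr13:23738657-23738806, plus strand: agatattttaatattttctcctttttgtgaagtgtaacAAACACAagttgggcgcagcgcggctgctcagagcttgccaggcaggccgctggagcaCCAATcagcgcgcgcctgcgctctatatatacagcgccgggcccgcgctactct
H1f5 and H1f2 both hold the H1 box upstream of a CCAAT box, and H1f1 holds CCAAT and TATA boxes without those H1 box letters. Of the 4 replication-dependent H1 genes, 3 held the H1 box in the 300 bases from 250 before to 50 after the start, and the testis gene H1f6 held it too.

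Promoters of 29 of the 34 genes were in the RefSeq table, 21 of them on chromosome 13. CCAAT was present in 24 of the 29, where 37.4% of all 32851 promoter windows of that length held it. TATAAA was present in 15 (13.6% of all), AAACACA in 9 (7.18%) and ATTTGCAT in 8 (1.74%). TTTGAA, known from cell cycle genes, was present in 12 (17.9%). TTTGGCGC and TTTCCCGC, forms of the E2F site, were present in 0 (0.514% and 1.07%). Both strands were searched, none of these strings contains another, and the windows of 2 divergent pairs overlap. A match describes the letters and is not a bound site.

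For H2B, which pairs with H2A in the nucleosome, 3 of 9 tested genes rose, 6 read above WT on both KO arrays, and 1 read below. Of all genes tested, 4.79% were called higher, 22.5% read above and 26.2% below. H2bc3 (Hist1h2bb) read 547 and 499 on the WT arrays and 699.7 and 974 on the KO arrays. The groups did not overlap, with a log2 fold change of 0.66 (0.33 to 0.99, adjusted p = 0.00256). H2bc14 (Hist1h2bm) read 968 and 975 on the WT arrays and 1199 and 1809.5 on the KO arrays. Its WT arrays were close together and the KO arrays far apart, with a log2 fold change of 0.60 (0.27 to 0.93, adjusted p = 0.00809). H2bc18 (Hist2h2bb), on chromosome 3, read 314 and 309.8 on the WT arrays and 356 and 538 on the KO arrays (log2 fold change 0.49, adjusted p = 0.0496). It lay at the threshold, and its adjusted p was 0.055 with no filter, 0.0511 with no pseudocount, 0.0513 with array weights and 0.0721 with a replicate block.

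Of the rest, H2bc8 (Hist1h2bg) and H2bc9 (Hist1h2bh) lay above WT on both KO arrays without passing. H2bc8 read 723 and 668 on the WT arrays and 814 and 1091 on the KO arrays (log2 fold change 0.44, adjusted p = 0.0931). H2bc9 read 802 and 830.5 on the WT arrays and 915 and 1282 on the KO arrays (log2 fold change 0.41, adjusted p = 0.13). With an intensity trend in the variance both H2bc8 and H2bc9 passed (limma adjusted p = 0.0301 for H2bc9). Without KO replicate 1 the log2 fold change was 0.65 for each of these genes.

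H2bc4 (Hist1h2bc) is, like H1f2, known to give polyadenylated messages in cells that do not divide. It read 147 and 152 on the WT arrays and 113 and 121 on the KO arrays, below WT on both KO arrays (log2 fold change -0.35, 95% interval -0.68 to -0.02, adjusted p = 0.222). H2bc21 (Hist2h2be) read 132 and 112 on the WT arrays and 114 and 140.0 on the KO arrays, with overlapping groups. H2bc22 (Hist1h2bp) overlapped too, at 255 and 194 on the WT arrays and 224 and 229 on the KO arrays. H1f2 and H2bc4 were the only tested histone genes that read below WT on both KO arrays, 2 of 30, where 26.2% of all genes did so. Neither passed the test, and a link with polyadenylated messages was not tested.

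The H2bc14 start and the stretch between the divergent starts of H2bc8 and H2ac8 are shown for the octamer, a known element of H2B promoters, with the same capitals.
H2bc14, chr13:21721894-21722043, plus strand: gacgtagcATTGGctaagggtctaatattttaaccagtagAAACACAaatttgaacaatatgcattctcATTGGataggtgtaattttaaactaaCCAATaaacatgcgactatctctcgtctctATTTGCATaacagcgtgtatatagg
H2bc8, chr13:23571221-23571399, plus strand: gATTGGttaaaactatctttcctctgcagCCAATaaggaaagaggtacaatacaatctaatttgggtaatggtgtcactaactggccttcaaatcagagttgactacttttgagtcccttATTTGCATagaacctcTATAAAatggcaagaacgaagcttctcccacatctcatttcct
The octamer was present in 4 of the 6 promoters of replication-dependent H2B genes and in 2 of 3 of such H2A genes, both strands counted, and in those of the testis genes H2ac1 and H2bc1. The starts of H2bc8 and H2ac8 lie 180 bases apart, and their windows share 279 bases. H2ac8 (Hist1h2ae), on the other side, read 544 and 449.5 on the WT arrays and 485 and 549 on the KO arrays. Its groups overlapped, with a log2 fold change of 0.06 beside 0.44 for H2bc8. The difference between these neighbours was not tested.

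In the H2A class the genes that rose were H2az1 and H2ax, both counted here as replacement variants, and none of the 3 replication-dependent genes passed. A difference between these kinds of gene was not tested. H2az1 (H2afz) encodes H2A.Z, a variant placed around transcription starts. It read 1333 and 1254 on the WT arrays and 1971 and 1991 on the KO arrays. The KO arrays were nearly equal and both above WT, with a log2 fold change of 0.62 (0.28 to 0.95, adjusted p = 0.00618). A second probe set of the gene read 1164 and 1172 in WT and 1826 and 1922 in KO. H2az2 (H2afv), which encodes the other form of H2A.Z, read 388 and 426 on the WT arrays and 526 and 539.9 on the KO arrays. It also lay above WT on both KO arrays with little between them (log2 fold change 0.39, 95% interval 0.06 to 0.72, adjusted p = 0.155).

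H2ax (H2afx) encodes H2A.X, which is phosphorylated at DNA breaks. It read 401 and 458 on the WT arrays and 480.5 and 825 on the KO arrays. KO replicate 1 lay 22.5 above the higher WT array and KO replicate 2 far above it. The log2 fold change was 0.55 (0.22 to 0.89, adjusted p = 0.0176), and without KO replicate 2 it was 0.16 (adjusted p = 0.685). Without KO replicate 2, H2az1 kept a log2 fold change of 0.61 (adjusted p = 0.0181).

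The H2az1 start is shown as a replacement variant promoter beside those of the clusters, with the same capitals. It holds CCAAT on both strands, and neither TATAAA, the H1 box nor the octamer was found in the window.
H2az1, chr3:137864337-137864486, plus strand: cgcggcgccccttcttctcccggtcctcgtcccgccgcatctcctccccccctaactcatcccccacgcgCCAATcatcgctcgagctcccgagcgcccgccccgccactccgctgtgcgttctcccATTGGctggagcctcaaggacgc
Of the replication-dependent H2A genes, H2ac15 (Hist1h2ak) read 2084 and 1859 on the WT arrays and 2220.1 and 2729 on the KO arrays. It lay above WT on both KO arrays (log2 fold change 0.32, adjusted p = 0.269) and passed with an intensity trend (0.0246). H2ac4 (Hist1h2ab) read 233 and 201 on the WT arrays and 246 and 368 on the KO arrays, with a log2 fold change of 0.47 (adjusted p = 0.0593). H2ac4 passed with quantile normalization, with array medians subtracted and with a pseudocount of 16.

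H3 and H4, which form the core tetramer of the nucleosome, had 0 of 8 tested genes called (limma, 1 at an unadjusted p under 0.05). Of the 8, 2 were of H3 and 6 of H4. As 4.79% of all genes tested were called higher and 3.5% lower, 0 of 8 does not set these classes apart. H3c4 (Hist1h3d) read 708 and 728 on the WT arrays and 774 and 882 on the KO arrays. The KO arrays were above WT by less than the test could call (log2 fold change 0.20, 95% interval -0.13 to 0.54, adjusted p = 0.539). H4c4 (Hist1h4d) read 3571 and 3656 on the WT arrays and 3882 and 4286 on the KO arrays (log2 fold change 0.17, adjusted p = 0.612). H4c14 (Hist2h4) read 1292 and 1215 on the WT arrays and 1186 and 1787 on the KO arrays. Here KO replicate 1 lay below both WT arrays and KO replicate 2 above them, so that the log2 fold change of 0.22 (adjusted p = 0.505) was -0.08 without KO replicate 2 and 0.51, past the threshold, without KO replicate 1. Of the other H4 genes, H4c8 had a log2 fold change of 0.39, H4c6 0.29, H4c3 0.11 and H4c9 0.07. H3f3a, which encodes the replacement histone H3.3, read 263 and 305 on the WT arrays and 315 and 236 on the KO arrays, with overlapping groups and a log2 fold change of -0.06 (95% interval -0.39 to 0.28, adjusted p = 0.894).

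Among the genes below the filter, H1f10, a replacement linker histone, read 69.1 and 60.3 on the WT arrays and 73.2 and 104 on the KO arrays, and was not tested. H3c7 and H3c15 read from 46.1 to 71.9 over the 4 arrays, and H1f8, the oocyte linker histone, from 64.4 to 94.5. Of the 5 genes known from germ cells, 0 of 4 tested passed (limma, 2 at an unadjusted p under 0.05). As 4.79% of all genes tested were called higher and 3.5% lower, 0 of 4 does not set these genes apart. Among them H2ac1 was called higher with an intensity trend in the variance. H1f6, the testis linker histone, read 72.5 and 100.2 on the WT arrays and 92.9 and 88.2 on the KO arrays, and H1f7 read 238 and 318 on the WT arrays and 278 and 279.9 on the KO arrays. In both genes the groups overlapped. H2ac1 and H2bc1, the testis forms of H2A and H2B, lie head to head with starts 281 bases apart. H2ac1 read 1018 and 1036 on the WT arrays and 1347 and 1397 on the KO arrays and H2bc1 read 716 and 748 on the WT arrays and 830.1 and 1060.5 on the KO arrays, with log2 fold changes of 0.42 and 0.36. Histone genes of a class share much coding sequence, and hybridisation of 1 gene's RNA to another's probes was not tested.

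Another 32 probe sets were annotated with a histone gene together with other symbols and are not among the 34 genes. They fell into 10 sets of symbols, of which the largest held 20. On 25 of the 32 both KO arrays read above both WT arrays, on 3 below, and on 4 the groups overlapped. Of all genes tested, 22.5% read above and 26.2% below in this way. Some of the 32 probe sets are near copies of each other, and 6 had values identical to another, so they are not independent. The 10 probe sets for H3 cluster genes as a whole, 12 symbols each, had a median of 3269 and 3371 on the WT arrays and 3937 and 4915 on the KO arrays, with log2 fold changes from 0.39 to 0.49. The 5 for H4 as a whole had a median of 3201 and 3078 on the WT arrays and 3231 and 3945 on the KO arrays (0.16 to 0.23), and the 7 for H2B 2187 and 2176 on the WT arrays and 2487 and 3052 on the KO arrays (0.26 to 0.45). The 2 for H2A had a median of 1749 and 1780.4 on the WT arrays and 2045 and 2623 on the KO arrays (0.35 to 0.45).

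Of the 6 probe sets of the H3.3 genes, none had both KO arrays above both WT arrays, and 3 of H3f3a had both below. Of all genes tested, 22.5% read above and 26.2% below in this way. Those 3 probe sets name the same symbols and are not independent. The 4 that name H3f3a with a predicted gene had a median of 1333 and 1346 on the WT arrays and 1204 and 1109 on the KO arrays, with log2 fold changes from -0.32 to -0.12. The 2 that name H3f3b had a median of 1694 and 1774 on the WT arrays and 2054 and 1711 on the KO arrays (0.09 to 0.14). For each of the 10 symbol sets the probe set of highest mean was added to the fit. Of these 10, 0 passed (limma, 5 at an unadjusted p under 0.05, smallest adjusted p 0.0789). For the H3 cluster genes this probe set had a log2 fold change of 0.39, the lowest of that family, where the highest was 0.49. The other shared probe sets were not tested.

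**Figure D3:**
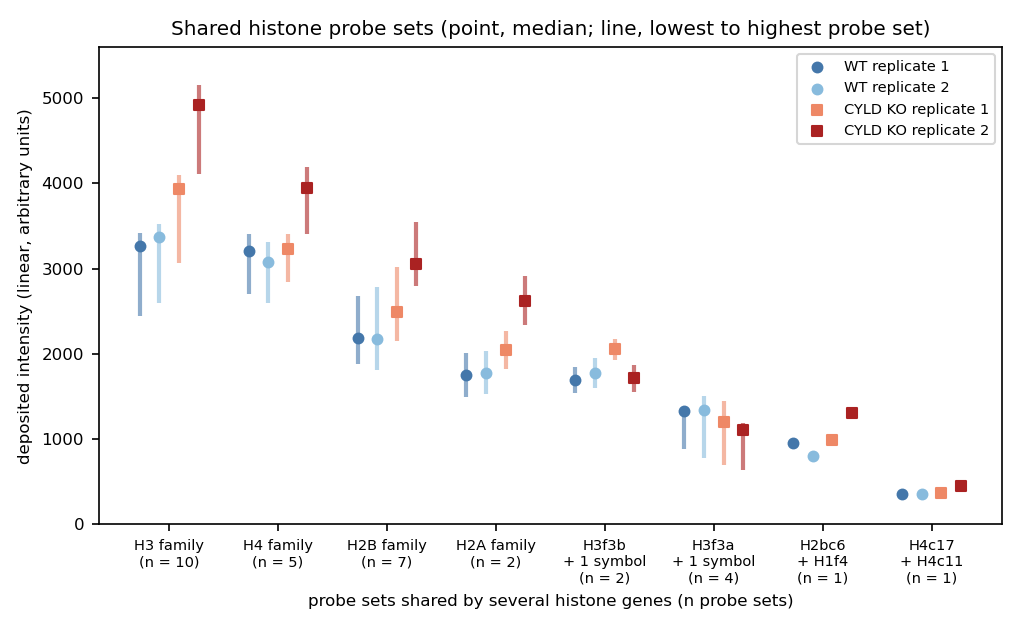
Deposited intensity (linear axis) of the 32 shared histone probe sets by family on the 4 arrays; points are medians over probe sets and lines run from the lowest to the highest. In the H3 family the medians are 3269 and 3371 on the WT arrays and 3937 and 4915 on the KO arrays.

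The KO arrays were also set against each other, 1 array against 1, which allows no test. KO replicate 2 read higher than KO replicate 1 in 26 of the 30 tested histone genes, and 46.2% of all genes tested did so. It was over 1.5-fold higher in 5 (1.39% of all genes) and over 1.5-fold lower in 0 (0.874%). The 5 were H2ax, H1f5, H2bc14, H2bc18 and H4c14. WT replicate 2 read higher than WT replicate 1 in 14 of the 30 (47.9% of all genes), and the WT arrays differed by over 1.5-fold in 0 of the 30 (0.15% and 0.0502% of all genes in each direction). The median log2 difference of replicate 2 minus replicate 1 was 0.29 in KO and -0.02 in WT over the histone genes.

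Against the WT mean, the median over the 30 genes was 0.16 on KO replicate 1 and 0.46 on KO replicate 2. H2ax differed most between the KO arrays, at 0.16 on replicate 1 and 0.94 on replicate 2. H1f5 stood at 0.59 on replicate 1 and 1.22 on replicate 2, and H2bc14 at 0.30 on replicate 1 and 0.90 on replicate 2. H2az1, at 0.61 on replicate 1 and 0.62 on replicate 2, H2az2, at 0.37 on replicate 1 and 0.41 on replicate 2, and H2ac1, at 0.39 on replicate 1 and 0.44 on replicate 2, differed little between the arrays. So did 2 genes near the WT mean. H1f7 stood at 0.015 on replicate 1 and 0.026 on replicate 2, and H2bc22 at 0.008 on replicate 1 and 0.037 on replicate 2. The 4 genes lower on replicate 2 were H3f3a (0.15 on replicate 1 and -0.26 on replicate 2), H4c9 (0.15 on replicate 1 and -0.008 on replicate 2), H1f2 and H1f6.

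**Figure D4:**
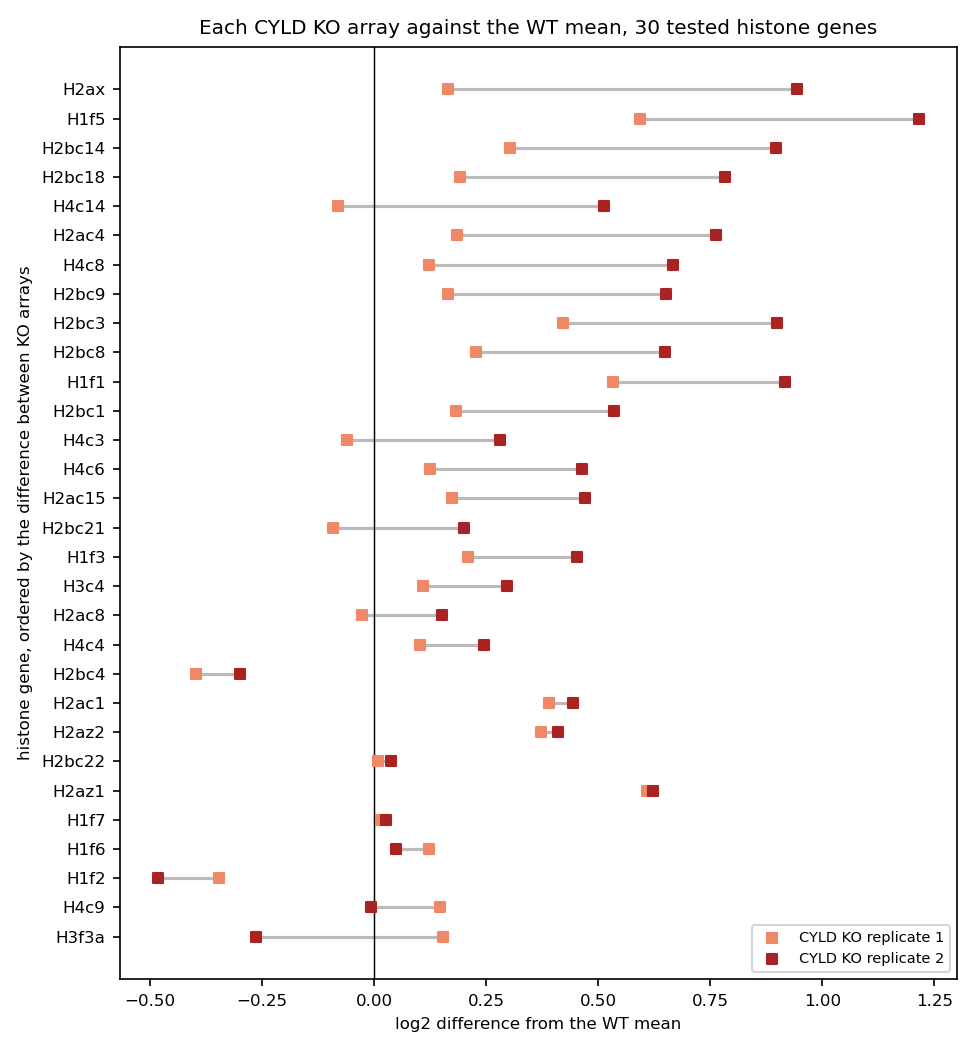
Log2 difference of each KO array from the mean of the WT arrays for the 30 tested histone genes, ordered by the difference between the KO arrays. Most genes lie further right on replicate 2, and the pair of points nearly coincides for H2az1, H2az2, H2ac1, H1f7 and H2bc22.

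Genes that supply or place histones, or encode variants under other names, were read beside them. Of 23 tested, 4 rose and 0 fell (limma, 3 lower at an unadjusted p under 0.05), where 4.79% and 3.5% of all genes tested did so. The supply genes had a median log2 fold change of 0.22. Against the WT mean, their median was 0.05 on KO replicate 1 and 0.37 on KO replicate 2. The list was chosen with earlier results of these data known. Asf1b, a histone chaperone of dividing cells, read 416 and 428 on the WT arrays and 583 and 1032 on the KO arrays (log2 fold change 0.88, adjusted p = 1.33e-05). Chaf1a, the large subunit of the chromatin assembly factor that loads new H3 and H4, read 94.3 and 80.8 on the WT arrays and 139 and 150.3 on the KO arrays (log2 fold change 0.72, adjusted p = 0.000677). The cell cycle factor E2f2 (log2 fold change 0.58, adjusted p = 0.0118) and Cenpa, the centromere form of H3 (0.50, adjusted p = 0.0397), also rose. Without KO replicate 2 the log2 fold change was 0.46 for Asf1b (adjusted p = 0.109), 0.33 for E2f2 (0.315) and 0.36 for Cenpa (0.269), none past the threshold.

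Slbp, which binds the stem-loop of histone messages, read 248 and 197 on the WT arrays and 250.4 and 313 on the KO arrays and did not pass (log2 fold change 0.34, adjusted p = 0.241). Npat, the coactivator of cluster histone genes, read 187 and 177 on the WT arrays and 188 and 241 on the KO arrays (log2 fold change 0.22, adjusted p = 0.487). Both read highest on KO replicate 2. Fewer supply genes were called without WT replicate 1, WT replicate 2 or KO replicate 2, and more without KO replicate 1. The number called over all genes tested moved the same way. The gene called without KO replicate 2 was Chaf1a (log2 fold change 0.67), which was not called without WT replicate 2 (0.61). Daxx, a chaperone of H3.3, was called lower without KO replicate 2 (log2 fold change -0.64). With all arrays Daxx had a log2 fold change of -0.40 (adjusted p = 0.138).

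Lists of replication and mitosis genes were read on the same arrays. Of 21 tested S phase genes 12 were higher in KO and 0 lower, with a median log2 difference from the WT mean of 0.28 on KO replicate 1 and 0.75 on replicate 2. Of 16 tested mitosis genes 16 were higher, with medians of 0.47 and 1.21. Over all genes tested, 4.79% were called higher and 3.5% lower. The S phase and mitosis counts were lower without WT replicate 1, WT replicate 2 or KO replicate 2. The number called over all genes tested was lower there too. The part of the share of dividing cells in the histone values was not tested.

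**Figure D5:**
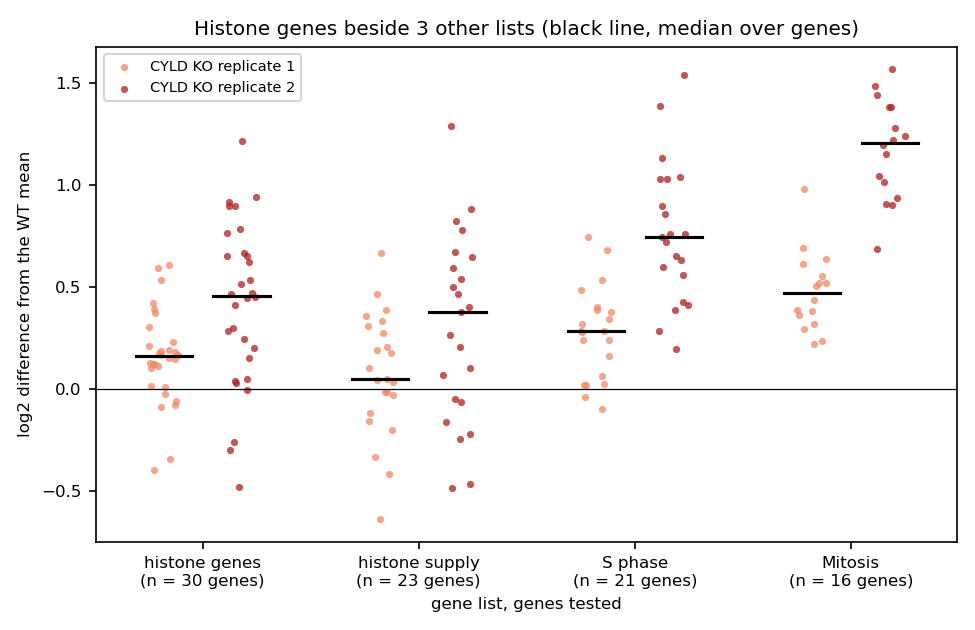
Log2 difference of each KO array from the WT mean for the tested genes of 4 lists; each point is a gene and black lines are medians. For the histone genes the medians are 0.16 and 0.46, and for mitosis genes 0.47 and 1.21.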

How the data were processed

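The deposited table gives each probe set an intensity on each array, unlogged as its values show; per the labels' protocols, biotinylated cRNA was hybridised. The authors' background correction, summary and scaling were not given in the sources used here. Of 35557 probe sets, 21789 had 1 symbol in a platform annotation, 1621 several and 12147 none. Intensities were converted to log2(value + 1), so fold changes of low genes are slightly understated. For Chaf1a the log2 fold change was 0.723, and 0.729 with no pseudocount. Genes above the 30th percentile of the mean were tested, 13956 in all, with limma 3.58.1 in R 4.3.3 (lmFit, eBayes, 2 residual degrees of freedom per gene) and Benjamini-Hochberg adjustment at 0.05. limma estimated infinite prior degrees of freedom, which gives all genes 1 standard error. The number of arrays limits the precision. The test was tried on simulated data in which every gene had the same spread. That trial cannot show how the pooled test does where spreads differ between genes. Alternatives varied the filter, scaling, pseudocount, variance model, array weights, probe sets, threshold, pairing and arrays.

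The histone genes and lists were chosen with earlier results of these data known. Named genes are Cyld, the called members with the largest changes, the 2 of highest mean in each class, replacement variants, those differing most between KO arrays and called supply genes; other histone and supply genes were named after their values were seen. Macrophage, Treg and erythroid markers are reported; lists for B, plasma, CD8 and NK, dendritic, granulocyte and platelet cells had 0, 1, 1, 0, 0 and 0 members called higher and 0 lower, with 0 granulocyte markers above the filter.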

Additional observations from a re-analysis of the deposited data

How the results depend on the processing

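Across 12 other settings that kept all arrays, 0 of 21 named log2 fold changes reversed; all 11 calls among them were lost with no pooling of variances, H2bc18 lost its call in 4 more settings and Cenpa in 1, while H2ac15 and H2bc9 gained one with an intensity trend. The number of histone genes called higher, 7, was 11 with an intensity trend and 0 with no pooling, and 5 to 9 in other settings with all arrays kept; over all genes no pooling left 0 calls (1813 at an unadjusted p under 0.05). Supply genes called, 4, were 0 with no pooling and 2 at a threshold of 0.01. Histone genes higher on KO replicate 2 by over 1.5-fold, 5, were 14 for a difference over 25% and 0 at 2-fold. Leaving out 1 array gave 1 to 13 histone genes, 1 to 8 supply genes, 2 to 16 S phase genes and 5 to 16 mitosis genes called higher, the last 2 counts added after seeing the data, and a median log2 fold change of 0.16 to 0.46. Under the same omissions H1f6 ran from -0.14 to 0.32, H3f3a from -0.26 to 0.15, H4c14 from -0.080 to 0.51 and H4c9 from -0.0080 to 0.15. The cause of these changes was not tested. No histone gene was called lower under any of these settings.

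The replicate numbers pair no samples as far as the labels say (correlation of same-numbered deviations -0.092 over genes); with the replicate block 6 histone genes were called higher and 0 lower. No detection calls were used, so signal over background was not measured. With 2 arrays per group, a gene that did not pass the test is not shown to be equal between the groups.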
